A study of Homo sapiens with 6 samples.

Results

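The replication genes examined here encode the proteins that license origins, unwind DNA, copy it and assemble it into chromatin. They were 48 genes taken by symbol from a fixed list, of 58299 genes in the count table, a list drawn up with earlier results of these data known. All 48 passed the filter on low counts, with 72 to 15677 counts per library, so none was kept or lost because of its change. RNA was measured in AC16, a human line made by fusing ventricular heart cells with transformed fibroblasts, and both groups are cultures of this 1 line. The 3 control libraries came from cells kept 72 h in 0.1% DMSO. The 3 treated libraries came from cells first given CDDO-Me at 100 nM for 24 h and then doxorubicin at 100 nM for 48 h, harvested at the same 72 h. CDDO-Me is a triterpenoid that activates the transcription factor NRF2, and doxorubicin, an anthracycline, poisons topoisomerase II. The labels leave unclear whether CDDO-Me was still present during doxorubicin, and whether treated cells had DMSO. No group had only one of the drugs, so a change cannot be assigned to either.

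In G1, the origin recognition complex (ORC), CDC6 and CDT1 load the MCM2-7 helicase on origins, and geminin (GMNN) and the degradation of CDT1 stop a repeated loading in S and G2. The kinases CDC7-DBF4 and cyclin E-CDK2 then recruit CDC45 and GINS to make the active helicase. Polymerase alpha-primase starts each strand, RFC loads the PCNA clamp, and polymerases delta and epsilon extend. Most of these genes are known targets of E2F factors, which peak at the G1/S boundary. Mitosis genes are known to peak later, under the control of complexes that include DREAM and MMB-FOXM1.

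The libraries held 17150259 to 20193957 counts, with a common biological coefficient of variation of 4.82%. The labels do not say whether the 3 replicates were separate cultures, so the spread behind each p-value may be technical. Of 16 cardiomyocyte markers, 10 had 0 counts in all controls, among them MYH6, MYH7, TNNI3 and NKX2-5, and only TTN, NPPB and GATA4 passed the filter. TTN was higher after treatment (log2 change 0.47), and NPPB (-3.85) and GATA4 (-0.33) were lower. NPPB was near the floor, with 18, 10 and 13 counts in controls and 3, 0 and 0 in treated libraries, and the groups of GATA4 overlapped. Only 1 of the 16, TNNI3, had 0 counts in all treated libraries. The other markers without counts in controls stayed near the floor, from 1 count for NKX2-5 to 30 for PLN in all treated libraries together. None of these was tested. Their summed level was 26.8 to 29.3 CPM in controls and 26.4 to 32.0 CPM in treated libraries. Fibroblast markers were abundant and lower after treatment in 9 of 10, with a summed level of 24441 to 26928 CPM in controls and 13142 to 13970 CPM in treated libraries. Of 4 leukocyte markers 2 were higher, with a summed level of 1.27 to 1.49 CPM in controls, where CD3E and LYZ had 0 counts, and 4.43 to 5.33 CPM in treated libraries. Of 5 endothelial markers 2 were higher and 1 lower, with sums of 21.6 to 24.4 CPM in controls and 11.4 to 12.1 CPM in treated libraries. That sum was mostly TEK, which fell, while PECAM1 and KDR were the markers that rose. The part of these shifts in the results below was not tested.

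The replication genes moved in both directions and mostly by little. At an edgeR adjusted p below 0.05, 35 of the 48 were called (72.9%), 23 higher and 12 lower, and 13 were not. Of all 15575 tested genes 63.5% were called, 32.3% higher and 31.2% lower. The largest rises were in the cyclin gene CCNE1 (2.9-fold), the clamp gene PCNA (1.8-fold) and the cyclin gene CCNE2, the helicase gene GINS4 and the licensing genes CDT1 and CDC6 (1.62-fold to 1.65-fold). The largest falls were in the kinase subunit gene DBF4 (to 0.457 of control), GINS2 (to 0.565) and MCM6 (to 0.597). A change of at least 1.5-fold was called in 6 members upward, against 17.6% of all tested genes, and in 3 downward, against 12.0%. In bulk RNA, fewer cells in a cycle phase and less RNA per cell cannot be told apart.

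The median log2 change of the 48 members was 0.12, beside 0.02 for all genes tested, and 0.08 without treated replicate 1. The median size of the change, regardless of sign, was 0.23 for the members and 0.37 for all genes. All genes were not matched to the members for count level. The groups did not overlap in 36 of 48 members (75.0%), and in 66.7% of all genes. Levels are TMM-normalised CPM (counts scaled to library size), given per library or as the mean ± SD of 3 libraries. A log2 change is that of the treated over the control group, with its standard error (SE). With scaling by total counts alone the median of all genes was 0.15 in place of 0.02, and 30 members were called higher and 10 lower. The split of all genes by direction was not counted with that scaling. Directions are given on the TMM scale.

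**Figure D1:**
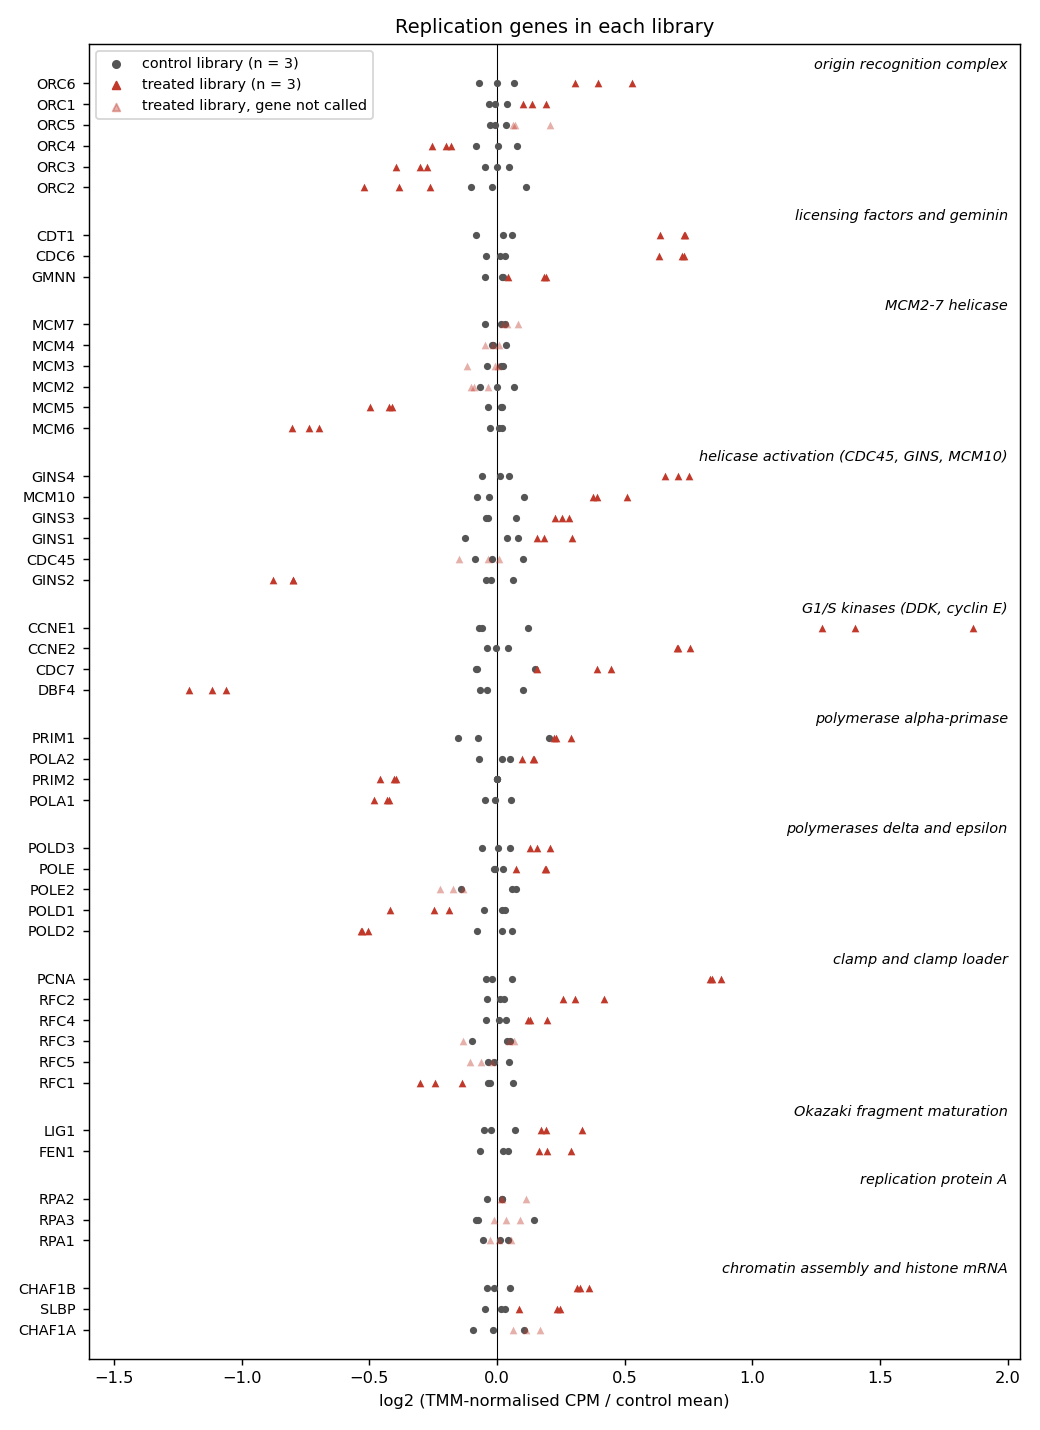
Log2 of each library's TMM-normalised CPM over the control mean (x axis) for the 48 replication genes, grouped by role (y axis); grey dots are 3 control libraries, red triangles 3 treated libraries, pale where the gene was not called. CCNE1 lies farthest to the right and DBF4 farthest to the left, and within the MCM2-7 helicase and GINS some subunits fell while others did not.

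E2F words were found in the promoters of some members that rose and some that fell, and most called members with a window had none. RefSeq start sites (GRCh38.p14) gave a window of 250 bases before and 50 after the first listed start for 41 of the 48 members. There was no window for MCM4, MCM5, GINS4, CCNE2, POLD3, RPA2 and RPA3. Both strands were searched for the E2F words TTTGGCGC, TTTCGCGC, TTTCCCGC and TTTGCCGC, the CHR words TTTGAA and TTCGAA, and the CCAAT box. The CHR is the element that DREAM is known to bind at mitosis genes, and CCAAT is the NF-Y box. At least 1 E2F word stood in 17 of 41 member windows (41.5%), in 3.33% of the windows of all 27305 genes and in 5.34% of those of tested protein-coding genes. By call, it stood in 8 of 20 windows of genes called higher, 4 of 11 called lower and 5 of 10 not called. CCNE1, with the largest rise, had no match to any searched word, and DBF4, with the largest fall, had no E2F word. A CHR word stood in 2 of 41 member windows, those of MCM6 and DBF4, in 16.6% of all windows and in 11.3% of those of tested protein-coding genes. CCAAT stood in 21 of 41 member windows, in 35.7% of all windows and in 36.6% of those of tested protein-coding genes. In 17 windows of mitosis genes the counts were 1 for E2F, 13 for CHR and 13 for CCAAT. A match describes letters, not a bound site, and other spellings were not searched.

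Windows are shown for the members called with a change of at least 1.5-fold, which leaves out CCNE2 and GINS4 for want of a window, and for a subunit gene that was not called. Each runs 5′ to 3′ on the gene's strand from at least 130 bases before to 20 after the start site, with matches of any searched word, on either strand, in capitals. The first 4 belong to genes that rose, the next 3 to genes that fell, and the last to MCM7, which was not called.
CCNE1, chr19:29811861-29812010, plus strand: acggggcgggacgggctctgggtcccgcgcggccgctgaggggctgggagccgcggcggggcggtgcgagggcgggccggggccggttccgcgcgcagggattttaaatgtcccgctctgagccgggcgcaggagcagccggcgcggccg
PCNA, chr20:5126603-5126752, minus strand: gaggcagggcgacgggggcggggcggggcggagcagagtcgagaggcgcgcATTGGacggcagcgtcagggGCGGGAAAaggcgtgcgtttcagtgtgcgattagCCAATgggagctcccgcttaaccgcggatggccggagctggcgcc
CDT1, chr16:88803659-88803808, plus strand: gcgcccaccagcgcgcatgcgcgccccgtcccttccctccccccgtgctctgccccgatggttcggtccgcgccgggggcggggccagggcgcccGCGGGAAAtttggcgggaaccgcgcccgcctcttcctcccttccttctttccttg
CDC6, chr17:40287749-40287898, plus strand: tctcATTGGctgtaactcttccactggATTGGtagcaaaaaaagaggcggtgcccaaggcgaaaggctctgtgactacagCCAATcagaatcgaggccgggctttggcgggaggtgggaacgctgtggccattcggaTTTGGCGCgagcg
GINS2, chr16:85688935-85689084, minus strand: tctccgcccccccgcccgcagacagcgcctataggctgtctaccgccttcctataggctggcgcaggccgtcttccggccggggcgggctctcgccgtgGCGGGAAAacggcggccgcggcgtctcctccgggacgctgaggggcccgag
MCM6, chr2:135876424-135876603, minus strand: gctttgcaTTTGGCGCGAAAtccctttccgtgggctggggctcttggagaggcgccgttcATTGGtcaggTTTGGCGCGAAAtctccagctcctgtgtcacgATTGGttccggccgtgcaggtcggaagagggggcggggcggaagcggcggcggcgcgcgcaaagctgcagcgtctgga
DBF4, chr7:87876363-87876512, plus strand: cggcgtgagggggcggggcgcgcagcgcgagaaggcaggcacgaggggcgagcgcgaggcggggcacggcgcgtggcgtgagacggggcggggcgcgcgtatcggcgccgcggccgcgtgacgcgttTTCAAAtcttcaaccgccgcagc
MCM7, chr7:100101378-100101527, minus strand: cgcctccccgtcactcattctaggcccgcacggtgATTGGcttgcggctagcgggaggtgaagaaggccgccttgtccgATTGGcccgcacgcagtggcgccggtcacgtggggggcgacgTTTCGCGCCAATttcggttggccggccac
The run GCGGGAAA, which is TTTCCCGC read on the other strand, occurs in PCNA and CDT1, which rose, and in GINS2, which fell. In MCM6 the run TTTGGCGCGAAA occurs in 2 copies, each an overlap of TTTGGCGC with the reverse of TTTCGCGC. In MCM7 an E2F word and a CCAAT box overlap beside the start site. The DBF4 window holds no E2F word, and its single capital run is a CHR word, read on the other strand, that spans the start site.

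The licensing factor genes CDC6 and CDT1 rose, and so did the inhibitor gene GMNN. CDC6, the ATPase that loads MCM2-7 with ORC (ENSG00000094804, GRCh38 chromosome 17, 40287633 to 40304657), stood at 172, 179 and 182 CPM in controls and at 293, 276 and 295 CPM in treated libraries. CDT1, which carries MCM2-7 to ORC (ENSG00000167513, chromosome 16, 88803213 to 88809258), stood at 104, 94.3 and 101 CPM in controls and at 166, 156 and 167 CPM after treatment. For both genes every treated library lay well above every control, with log2 changes of 0.70 (SE 0.048, edgeR adjusted p = 3.36e-20) for CDC6 and 0.70 (SE 0.052, edgeR adjusted p = 1.19e-18) for CDT1. GMNN, the CDT1 inhibitor geminin, stood at 96.4, 101 and 101 CPM in controls and at 114, 103 and 113 CPM in treated libraries. Its groups were close without overlapping, and the log2 change was 0.14 (SE 0.054, edgeR adjusted p = 0.0189). The GMNN call was lost without control replicate 1, treated replicate 1 or treated replicate 3 (edgeR adjusted p = 0.0888, 0.0967 and 0.106). Per kb of exon, the ratio of CDT1 to GMNN was 0.746 ± 0.054 in controls and 1.10 ± 0.023 in treated libraries. Such ratios do not depend on the scaling of libraries, and these pairs were picked with their values known.

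The 6 ORC genes split, with 2 higher, 3 lower and 1 not called. ORC6, the small subunit needed for MCM loading, had the largest change: 97.9, 108 and 103 CPM in controls against 148, 127 and 135 CPM after treatment. The treated libraries of ORC6 spread widely but all exceeded the controls (log2 change 0.41, SE 0.055, edgeR adjusted p = 1.49e-09). ORC1, the cell cycle-regulated ATPase subunit, had a log2 change of 0.14 (edgeR adjusted p = 0.0261). The ORC1 call was lost without control replicate 1, control replicate 3 or treated replicate 2 (edgeR adjusted p = 0.0838, 0.0737 and 0.125). The core subunit genes ORC2 (log2 change -0.39), ORC3 (-0.32) and ORC4 (-0.21) fell, ORC4 no longer so with total-count scaling (-0.08). ORC5 (0.12, edgeR adjusted p = 0.147) was not called, but both upper-quartile scaling (0.17, edgeR adjusted p = 0.0320) and total-count scaling (0.24, edgeR adjusted p = 0.00225) called it higher. ORC6 accordingly made up 26.3% ± 0.48 of the summed ORC level per kb in controls and 33.4% ± 1.87 in treated libraries. ORC3 made up 24.7% ± 0.71 and 18.8% ± 1.28, so the complex's subunit transcripts changed unequally.

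Of the MCM2-7 helicase subunits, which assemble as a ring with 1 copy of each, 2 fell and 4 were not called. MCM6 (ENSG00000076003, chromosome 2, 135839626 to 135876426) stood at 219, 227 and 224 CPM in controls and at 138, 128 and 134 CPM in treated libraries. MCM5 (ENSG00000100297, chromosome 22, 35400063 to 35425430) stood at 407, 409 and 393 CPM in controls and at 303, 300.1 and 285 CPM after treatment. In both genes all treated libraries lay below all controls, with log2 changes of -0.74 (SE 0.049, edgeR adjusted p = 4.73e-21) for MCM6 and -0.44 (SE 0.046, edgeR adjusted p = 5.12e-13) for MCM5. MCM7 stood at 475, 471 and 451 CPM in controls and at 493, 474 and 479 CPM after treatment, with overlapping groups (log2 change 0.05, SE 0.045, edgeR adjusted p = 0.345). MCM2 stood at 353, 336 and 321 CPM and then at 328, 314 and 316 CPM, MCM3 at 370.1, 372 and 357 CPM and then at 364, 337 and 367 CPM. MCM4 stood at 652, 677 and 653 CPM in controls and at 664, 639 and 654 CPM in treated libraries. The controls and treated libraries of MCM2, MCM3 and MCM4 overlapped. Their log2 changes of -0.08, -0.04 and -0.017 were not called (edgeR adjusted p = 0.149, 0.460 and 0.748). With total-count scaling all 3 had the opposite sign, 0.05 for MCM2, 0.09 for MCM3 and 0.11 for MCM4, the last called higher (edgeR adjusted p = 0.0232). MCM7 was called higher at 0.18 with total-count scaling (edgeR adjusted p = 3.65e-04) and at 0.10 with upper-quartile factors (edgeR adjusted p = 0.0425). MCM2 was called lower without control replicate 3 (-0.12, edgeR adjusted p = 0.0395).

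Per kb of exon, the MCM2-7 transcripts became less even. MCM6 made up 11.3% ± 0.32 of the summed MCM2-7 level per kb in controls and 7.35% ± 0.098 in treated libraries, and MCM5 11.4% ± 0.0083 and 9.15% ± 0.36. MCM7 made up 22.1% ± 0.22 and 24.9% ± 0.19, the highest share in both groups. Gene lengths are merged exons, so these and other shares per kb depend on which isoforms each gene uses. The ratio of the highest to the lowest subunit was 2.03, 1.95 and 1.92 in controls and 3.35, 3.47 and 3.35 in treated libraries. The summed level itself was 481 ± 9.94 CPM per kb in controls and 441 ± 10.5 CPM per kb after treatment, without overlap on the TMM scale. With total-count scaling the sums were 459.9 ± 11.6 and 459.8 ± 15.4 CPM per kb and overlapped, so the lower sum depends on the scaling. This rescaling of the sums was added after seeing the data.

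**Figure D2:**
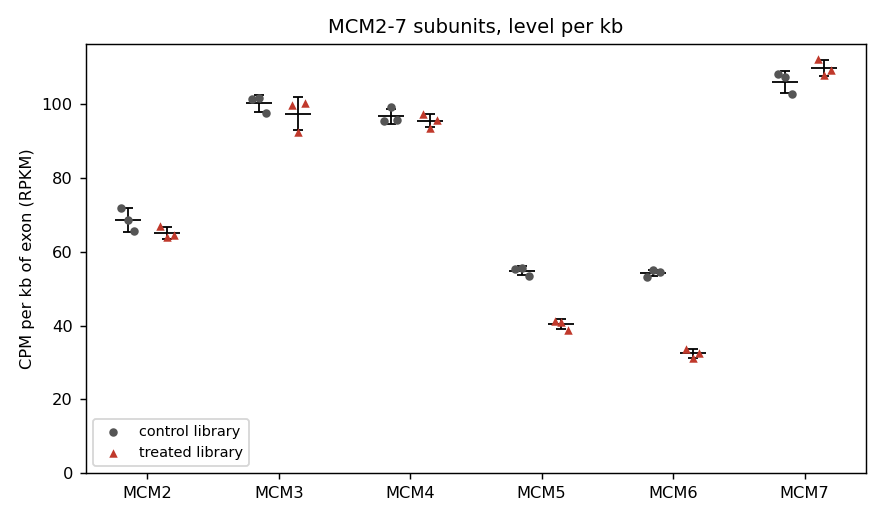
Level per kb of exon (CPM per kb, y axis, from 0) of the 6 MCM2-7 subunit genes (x axis), with 3 control libraries as grey dots, 3 treated libraries as red triangles, and bars for the mean and SD. MCM5 and MCM6 are lower in all treated libraries, while the points of MCM2, MCM3, MCM4 and MCM7 overlap between groups.

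The helicase partners also split, 4 of 6 higher, 1 lower and 1 not called. GINS2 (ENSG00000131153, chromosome 16, 85676198 to 85690073), 1 of the 4 subunits of the GINS ring, stood at 91.0, 92.3 and 97.9 CPM in controls and at 53.8, 51.1 and 53.9 CPM after treatment. GINS4, another subunit, moved the other way, from 83.9, 86.0 and 79.9 CPM to 136, 131 and 140.2 CPM. In neither gene did the groups overlap, and the log2 changes were -0.82 (SE 0.058, edgeR adjusted p = 1.40e-19) for GINS2 and 0.71 (SE 0.053, edgeR adjusted p = 2.26e-18) for GINS4. Of the exon bases of GINS4, 23.6% lie in exons of other genes, the main one with 60 counts in all libraries together against 12820 for GINS4. Reads in shared bases may have been dropped, so this low count does not show that the overlap is harmless. The level of GINS4 per kb, its share of the GINS sum and its ratio to GINS2 may then be too low. GINS1 (log2 change 0.21) and GINS3 (0.25) rose less. The summed GINS level per kb was 75.6 ± 2.02 CPM per kb in controls and 78.0 ± 2.01 in treated libraries, with overlap. With total-count scaling it was 72.3 ± 2.33 and 81.3 ± 2.89 CPM per kb, without overlap. Its makeup differed: GINS2 held 38.0% ± 1.16 of it in controls and 20.8% ± 0.29 after treatment, and GINS4 20.1% ± 0.99 and 31.8% ± 0.84. The ratio of GINS4 to GINS2 per kb was 0.530 ± 0.038 in controls and 1.53 ± 0.022 in treated libraries. CDC45, the third part of the active helicase, stood at 112, 122 and 107 CPM in controls and at 114, 103 and 111 CPM in treated libraries. These CDC45 values overlapped (log2 change -0.06, SE 0.055, edgeR adjusted p = 0.370; 0.07 with total-count scaling). MCM10, which helps activate the helicase, stood at 79.1, 81.8 and 89.8 CPM and then at 119, 108 and 110 CPM, a rise of 0.43 on the log2 scale (SE 0.056, edgeR adjusted p = 1.23e-09).

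The largest changes in either direction were among the genes of the kinases that trigger firing. CCNE1, cyclin E1 (ENSG00000105173, chromosome 19, 29811898 to 29824308), stood at 4.13, 4.72 and 4.17 CPM in controls and at 15.8, 10.5 and 11.5 CPM after treatment. Treated replicate 1 was the highest, and all treated libraries were above all controls (log2 change 1.54, SE 0.15, edgeR adjusted p = 3.94e-14, and 1.34 without treated replicate 1). CCNE2, cyclin E2, stood at 29.2, 30.8 and 29.9 CPM in controls and at 48.9, 50.6 and 49.0 CPM in treated libraries, without overlap (log2 change 0.72, SE 0.070, edgeR adjusted p = 4.56e-14). Since 37.1% of the exon bases of CCNE2 lie in exons of other genes, mainly INTS8 on the opposite strand, and the libraries carry no strand, its reads cannot all be told apart from theirs. Per kb, the ratio of CCNE1 to CCNE2 was 0.250 ± 0.012 in controls and 0.439 ± 0.10 after treatment. If reads in shared bases were dropped, the level of CCNE2 per kb is too low and this ratio too high.

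The 2 genes of the DBF4-dependent kinase went opposite ways. DBF4, the activating subunit (ENSG00000006634, chromosome 7, 87876216 to 87909541), stood at 47.7, 48.5 and 53.5 CPM in controls and at 23.0, 21.6 and 23.9 CPM in treated libraries. CDC7, the catalytic subunit, stood at 47.5, 55.7 and 47.3 CPM in controls and at 68.3, 56.0 and 65.8 CPM after treatment. DBF4 was less abundant in every treated library (log2 change -1.13, SE 0.075, edgeR adjusted p = 6.79e-21), and treated replicate 2 of CDC7 lay just above control replicate 2 (log2 change 0.34, SE 0.068, edgeR adjusted p = 1.84e-05). The ratio of DBF4 to CDC7 per kb was 0.779, 0.676 and 0.877 in controls and 0.261, 0.300 and 0.282 in treated libraries.

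**Figure D3:**
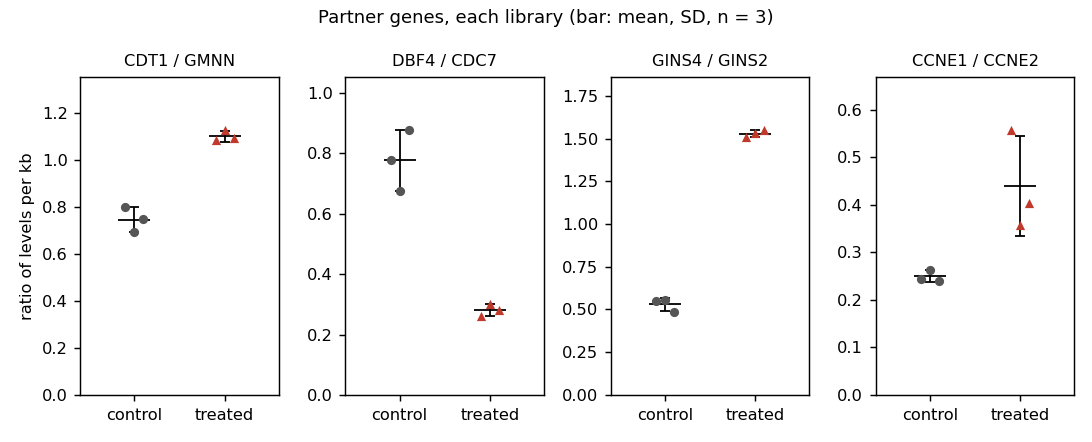
Ratio of the levels per kb (y axes, each from 0) of 4 pairs of partner genes in 3 control (grey dots) and 3 treated (red triangles) libraries, with the mean and SD. The ratios of CDT1 to GMNN, GINS4 to GINS2 and CCNE1 to CCNE2 are higher in all treated libraries, and that of DBF4 to CDC7 is lower, from 0.777 ± 0.10 to 0.281 ± 0.019.

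Polymerase alpha-primase, which lays the primers, was divided in both its polymerase and its primase part. POLA1, the catalytic polymerase subunit, stood at 79.4, 81.6 and 85.4 CPM in controls and at 58.8, 60.9 and 61.3 CPM after treatment, a clear gap (log2 change -0.45, SE 0.058, edgeR adjusted p = 9.44e-10). PRIM2, the large primase subunit, fell by 0.42 on the log2 scale, whereas PRIM1, the catalytic primase subunit, rose by 0.25. POLA2, the accessory subunit, had a log2 change of 0.13 (edgeR adjusted p = 0.0308), not called without control replicate 3 (0.08), treated replicate 2 (0.12) or treated replicate 3 (0.12), with edgeR adjusted p = 0.218, 0.0887 and 0.103. The share of POLA1 in the summed level per kb was 21.2% ± 1.19 in controls and 16.2% ± 0.17 in treated libraries, and that of PRIM1 25.2% ± 2.28 and 31.2% ± 0.59.

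Of the polymerase delta and epsilon genes, 2 rose, 2 fell and 1 was not called. POLD2, a delta accessory subunit, stood at 208, 202 and 189 CPM in controls and at 138, 139 and 141 CPM after treatment. This was the largest change of the group, without overlap (log2 change -0.52, SE 0.050, edgeR adjusted p = 2.20e-14). The catalytic delta subunit gene POLD1 fell by 0.28, and the catalytic epsilon subunit gene POLE rose by 0.15. POLD3 had a log2 change of 0.16 (edgeR adjusted p = 0.0287). The POLD3 call was lost without control replicate 1 or 2 or treated replicate 1 or 2 (edgeR adjusted p = 0.0532, 0.153, 0.0531 and 0.117). POLE2 had a log2 change of -0.17 and was called in 1 alternative run, without control replicate 3 (-0.25, edgeR adjusted p = 0.0341).

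The clamp gene rose, and the 5 loader genes split, 2 higher, 1 lower and 2 not called. PCNA, the sliding clamp that tethers polymerases and a known p53 target (ENSG00000132646, chromosome 20, 5114953 to 5126626), stood at 399, 429 and 406 CPM in controls and at 755, 736 and 733 CPM in treated libraries. The treated libraries were tightly grouped above the controls (log2 change 0.85, SE 0.045, edgeR adjusted p = 1.98e-25). Of the loader genes, RFC2 (log2 change 0.33) and RFC4 (0.15) rose. The large subunit gene RFC1 fell by 0.23, and was not called with total-count scaling (-0.10). The RFC4 call was lost without control replicate 1 or treated replicate 1 (edgeR adjusted p = 0.0872 and 0.0978). RFC3 (-0.0052) and RFC5 (-0.06) were not called, and both had the opposite sign with total-count scaling (0.12 and 0.06). The ratio of PCNA to RFC1 per kb was 8.44 ± 0.50 in controls and 17.8 ± 0.78 after treatment.

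Of the 5 genes of Okazaki fragment maturation, chromatin assembly and histone mRNA binding, 4 rose. LIG1, the ligase that seals fragments, stood at 120.4, 113 and 111 CPM in controls and at 129, 144 and 131 CPM in treated libraries, without overlap (log2 change 0.23, SE 0.053, edgeR adjusted p = 1.20e-04). FEN1, the flap nuclease, rose by 0.22 on the log2 scale. CHAF1B, a subunit of the CAF-1 histone chaperone, stood at 97.0, 93.1 and 91.2 CPM in controls and at 120.2, 117 and 117 CPM after treatment. Its treated libraries lay close together above the controls (log2 change 0.33, SE 0.053, edgeR adjusted p = 1.43e-07). SLBP, which binds histone mRNA, rose by 0.19, and the CAF-1 gene CHAF1A (0.12, edgeR adjusted p = 0.0563) was not called, but was called without control replicate 1 (0.16) or treated replicate 2 (0.14). It was also called higher with total-count scaling (0.24, edgeR adjusted p = 5.80e-05), under upper-quartile scaling (0.17, edgeR adjusted p = 0.00501) and where genes needed 1 CPM in 3 libraries (0.13, edgeR adjusted p = 0.0278).

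None of the 3 genes of replication protein A, which coats single-stranded DNA, was called by edgeR, and none had an unadjusted p under 0.05. RPA2 had the largest change of the group, with 121, 125 and 125 CPM in controls and 134, 125 and 125 CPM in treated libraries, which overlapped (log2 change 0.05, SE 0.051, edgeR adjusted p = 0.407). RPA1 had a log2 change of 0.011 (SE 0.046) and RPA3 of 0.04 (SE 0.062), and DESeq2 called none of the 3. With total-count scaling all 3 were called higher, by 0.14 for RPA1, 0.18 for RPA2 and 0.17 for RPA3.

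Of 55 other replication genes, all tested, 17 rose (30.9%) and 23 fell (41.8%), and 15 were not called. Of all tested genes 32.3% were called higher and 31.2% lower. The median log2 change of the 55 genes was -0.08, beside 0.02 for all genes. With total-count scaling 23 of the 55 were called higher and 15 lower, and the median of all genes was 0.15. The shares of all genes called higher and lower were not counted with that scaling, so these 2 counts have no background beside them. DTL, which targets CDT1 for destruction with the ubiquitin ligase CRL4, had the largest rise, from 155, 153 and 168 CPM to 350, 334 and 345 CPM (log2 change 1.11, SE 0.049, edgeR adjusted p = 9.59e-30). ASF1B, a histone chaperone, rose from 145 ± 7.12 to 255 ± 7.45 CPM (log2 change 0.81). The largest falls were in CCNA2, cyclin A2 of S phase and G2, from 208, 202 and 201 CPM to 84.6, 76.0 and 81.0 CPM (log2 change -1.34, SE 0.052, edgeR adjusted p = 2.42e-32), and in SKP2, the ubiquitin ligase subunit that also targets CDT1. SKP2 fell from 155 ± 9.86 to 72.1 ± 0.90 CPM (log2 change -1.10). By role, 6 of 10 genes listed under origin firing and activation fell, among them CCNA2 and the kinase gene CDK1 (log2 change -0.33), and 2 rose. Of 9 fork protection and checkpoint genes 5 rose and 2 fell. Among 12 genes of licensing control 4 rose and 5 fell, and among 11 histone chaperone and chromatin genes 2 rose and 6 fell. Of 9 further polymerase subunit and nuclease genes 2 rose and 3 fell, and of 4 alternative clamp loader genes 2 rose and 1 fell. The ratio of CCNE2 to CCNA2 per kb was 0.0937 ± 0.0042 in controls and 0.392 ± 0.028 in treated libraries. Exon bases shared with other genes, 37.1% in CCNE2 and 9.08% in CCNA2, may have lowered both levels per kb.

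Beside the replication genes, all 20 mitosis genes compared were called lower and by at least 1.5-fold, against 31.2% and 12.0% of all tested genes. This list was chosen with earlier results of these data known. Among the 20, PRC1 had only 27 to 70 counts per library, and 58.4% of its exon bases lie in exons of other genes. The log2 changes of the mitosis genes ran from -2.36 to -0.69 with a median of -1.30. PLK1, the mitotic kinase, had 304 ± 19.8 CPM in controls and 59.1 ± 2.42 in treated libraries. CCNB1, cyclin B1, had 383 ± 7.83 and 95.4 ± 8.01 CPM. The members ranged from -1.13 to 1.54, and DBF4, GINS2 and MCM6 were the 3 members within the range of the mitosis genes. This difference between the lists was not tested.

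**Figure D4:**
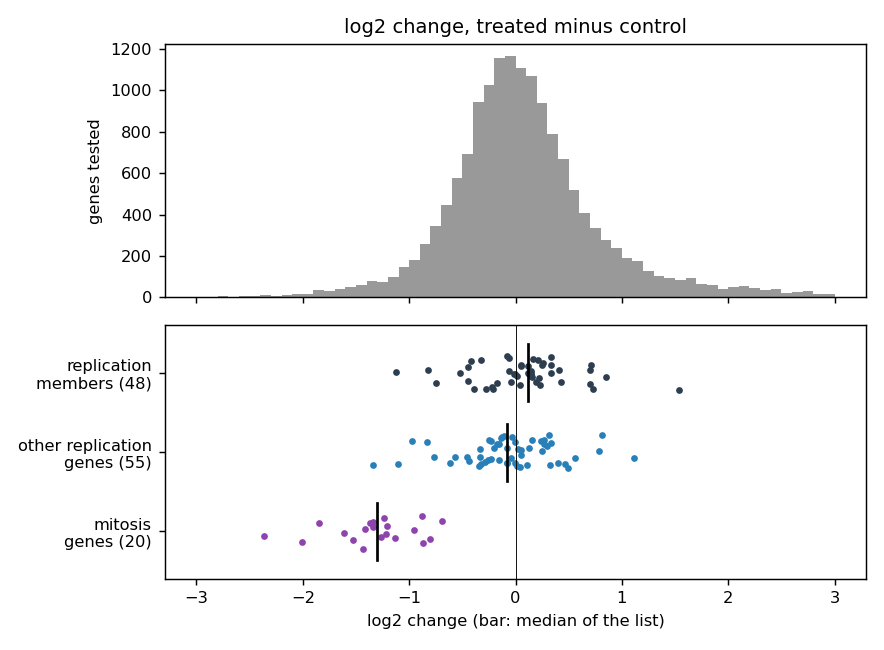
Top, number of tested genes (y axis) by log2 change, treated minus control (x axis); 13 genes below -3 and 339 above 3 lie outside the axis. Bottom, each of the 48 replication members, 55 other replication genes and 20 mitosis genes as a dot, spread vertically for visibility, with a bar at the list's median (0.12, -0.08 and -1.30).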

How the data were processed

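The authors deposited 1 table of whole-number counts per gene in 6 libraries, with exon coordinates and lengths, per the file header. Exon lengths, in bases, are used as deposited. Per the labels' protocols, the TruSeq libraries were poly(A)-selected and without strand information. STAR, SAMtools, Subread, featureCounts and hg38 (GRCh38) are named, without versions, per the submitters' processing notes. Annotation release and counting options are not given in the sources used here, so how reads in shared exons were counted is unknown. Symbols came from a table of Ensembl names (57717 of 58299 identifiers).

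Genes were filtered with filterByExpr (minimum count 10), normalised by TMM and tested with edgeR 4.0.16 (glmQLFit and glmQLFTest, group only, R 4.3.3), with Benjamini-Hochberg adjustment over 15575 genes and a threshold of 0.05. The script was also run on simulated data in which few genes changed, which does not check it where most genes change. SE is the size of the log2 change over the square root of F. Levels per kb divide CPM by the deposited exon length in kb. Replicate pairs differed by more than sampling noise (chi-square over degrees of freedom 2.29 to 3.01). Members and lists were chosen with earlier results of these data known. Library values are given in full for the MCM2-7 genes, PCNA, CDC6, CDT1, GMNN, CDC45, CCNE1, CCNE2, MCM10, each member called with a log2 change of at least 0.5 in size, and the largest change in each role. DESeq2 1.42.0, other scalings and filters, a replicate block and leaving out each library were alternatives.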

Additional observations from a re-analysis of the deposited data

How the results depend on the processing

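The counts of members called higher (18 to 30) and lower (10 to 14) stayed within 1.5 times those reported under every alternative run. The median log2 change of the members was 0.169 with upper-quartile factors and 0.243 with total counts only, and ranged from 0.0753 to 0.116 with each library left out in turn. A scaling factor moves all genes of a library alike. The median of all genes was 0.0776 with upper-quartile factors and 0.152 with total counts only, against 0.0245 with TMM. With total counts only, 15 other replication genes were called lower, and the share of all genes called lower was not counted. Log2 changes that turned their sign, none of them called with TMM, were MCM3 (0.0131), MCM4 (0.0359) and RFC3 (0.0484) with upper-quartile factors, and MCM2 (0.0511), MCM3 (0.0874), MCM4 (0.11), CDC45 (0.0703), RFC3 (0.123) and RFC5 (0.0648) with total counts only. RPA1 was at -0.0086 without a filter on low counts, and RFC3 at 0.0094 with at least 1 CPM in 3 libraries. With each library left out, RPA1 ranged from -0.0255 to 0.0264, RPA3 from -0.0066 to 0.105 and RFC3 from -0.0558 to 0.0511. Without a filter, 36005 genes were tested, and ORC1, GMNN, POLA2, POLD3 and RFC4 were not called. The cause of the shifts with other filters or with a library left out was not tested. RLE factors and DESeq2 changed the call of none of the 48 members. Samples with the same replicate number did not deviate together (correlations of -0.02, -0.0071 and -0.0072), so the numbers were not taken as pairs. With the replicate block, 23 members were higher and 12 lower, the same counts as without it, and 9653 of all genes were called against 9893. Of the 48 members and 55 other replication genes, the smallest called log2 change was that of TIMELESS (0.11, edgeR adjusted p = 0.0451).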

Other observations

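The members' transcripts spanned 164-fold per kb of exon in controls and 115-fold after treatment. PCNA was highest in both groups (279 ± 10.6 CPM per kb in controls, 504 ± 8.19 after treatment). In controls MCM7 (106 ± 3.01), MCM3 (100.3 ± 2.28), MCM4 (96.8 ± 2.06) and the histone mRNA binding protein gene SLBP (95.4 ± 2.75) followed. Of these neighbours MCM4 and SLBP lay within 1 SD of each other. MCM5 (54.9 ± 1.16) and MCM6 (54.3 ± 0.90) were alike in controls, ranking 10 and 11 of 48, and ranked 13 and 18 after treatment, at 40.3 ± 1.30 and 32.4 ± 1.19 CPM per kb. CCNE1 was lowest in controls (1.70 ± 0.13), and ORC4 was lowest after treatment (4.39 ± 0.11), followed by CCNE1 (4.93 ± 1.11), whose spread covers both ORC4 and DBF4 (4.98 ± 0.25). Gene lengths are merged exons, so the order depends on which isoforms each gene uses.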
